A study of Mus musculus with 12 samples.

Results

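The 9 genes described here are read mainly in T lymphocytes and were taken by name from the 53801 genes counted in colon and whole blood in the dextran sulfate sodium (DSS) model of ulcerative colitis (UC). They were Cd3e and Cd3g, Lck, Cd4, Cd8a and Cd8b1, Foxp3, and Gzma and Gzmb. All 9 were found in the count table and all 9 passed the filter on low counts in each comparison. Their values played no part in the choice by name, although earlier results of these data were known when it was made.

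The samples were 12 total RNA libraries in 4 labelled groups of 3, from C57BL/6 mice that were male and 8 weeks old per the study's methods. Mice 1, 2 and 4 were labelled as ulcerative colitis: DSS, a polymer that damages the lining of the gut, was given at 1.5% in the water for 7 days, and the mice were killed on day 8. Mice 7, 8 and 9 were labelled control, drank water without DSS and were killed on the same day. Each mouse gave a colon library and a blood library, and the study picked these 6 mice from a larger number by their disease activity index, a score of weight loss, stool and bleeding. DSS acts on the epithelium from the lumen, and the model is one of acute injury. Globin RNA was removed from the blood libraries but not from the colon libraries, so tissue and removal kit cannot be told apart. Colon was homogenised whole, and a low level of a T cell gene in bulk RNA cannot separate fewer T cells from less RNA per T cell.

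The labels were checked before any comparison. The tissue is given in a pair of label fields that disagree in every sample. Markers of colon epithelium (Krt8, Epcam, Vil1) and of red cells (Alas2) matched the tissue characteristic in all 12 libraries. The disease labels went against the inflammatory genes. The neutrophil list had 6 of 6 tested genes with the 3 highest colon values in mice 1, 7 and 9, of which mouse 1 was labelled UC and mice 7 and 9 were labelled control. The authors' normalized tables list the same 3 mice side by side, in the order 1, 7, 9, 2, 4 and 8 in each tissue, without saying why, and no group was taken from this order. What a value between the labelled groups means for DSS therefore rests on labels that these files leave in doubt. For this reason the groups are called libraries labelled UC and labelled control throughout, no library was moved to another group, and a direction between them is one between labels. The total count ran from 69181049 to 103662306 in colon and from 80867247 to 142536804 in blood, and 7SL RNA took 4.90% to 6.50% of the counts in colon and 35.9% to 65.4% in blood.

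T cells recognise antigen through a receptor whose variable chains carry no signalling tail of their own. The CD3 chains supply it, and the kinase Lck, bound to the co-receptors CD4 or CD8, phosphorylates them when the receptor is engaged. CD4 marks helper cells and CD8 marks cytotoxic cells, Foxp3 is the lineage factor of regulatory T cells, which restrain inflammation in the gut wall, and granzymes are proteases that cytotoxic T cells and natural killer (NK) cells release into their targets. The gut also holds intraepithelial lymphocytes, many of which bear a CD8 made of alpha chains alone or a gamma-delta receptor, and CD4 and CD8 alpha are read in some macrophages and dendritic cells as well.

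Promoter sequence was available from RefSeq (GRCm38.p6) for 7 of the 9 genes. Those of a pair of CD3 chains and of both granzymes are shown, since the first pair encode partners in a single complex and the second pair had the widest range in colon. Each covers 250 bases before to 50 bases after the start annotated in RefSeq, written 5′ to 3′ in the direction of the gene. The windows are chr9:45009562-45009861 for Cd3e, chr9:44980382-44980681 for Cd3g, chr13:113100932-113101231 for Gzma and chr14:56262285-56262584 for Gzmb, all on the minus strand. Capitals mark matches, on either strand, to letters bound by 4 families of transcription factors. ETS factors bind AGGAAG. RUNX factors, which T cells need at several stages, bind TGTGGT. Factors of the GATA family bind AGATAA in one of their usual forms. AP-1, the Fos and Jun pair induced by receptor signalling, binds TGACTCA.
Cd3e: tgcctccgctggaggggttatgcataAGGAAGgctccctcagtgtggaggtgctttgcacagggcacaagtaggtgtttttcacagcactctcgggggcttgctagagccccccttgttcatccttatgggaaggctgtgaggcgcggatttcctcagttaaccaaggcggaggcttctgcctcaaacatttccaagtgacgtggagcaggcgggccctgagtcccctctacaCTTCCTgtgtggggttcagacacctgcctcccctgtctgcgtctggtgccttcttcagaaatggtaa
Cd3g: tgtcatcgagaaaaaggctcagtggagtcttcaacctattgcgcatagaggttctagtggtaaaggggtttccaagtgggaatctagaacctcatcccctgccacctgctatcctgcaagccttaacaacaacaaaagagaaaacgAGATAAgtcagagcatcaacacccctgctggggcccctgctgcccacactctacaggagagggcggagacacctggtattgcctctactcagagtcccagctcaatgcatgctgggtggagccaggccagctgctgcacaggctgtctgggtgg
Gzma: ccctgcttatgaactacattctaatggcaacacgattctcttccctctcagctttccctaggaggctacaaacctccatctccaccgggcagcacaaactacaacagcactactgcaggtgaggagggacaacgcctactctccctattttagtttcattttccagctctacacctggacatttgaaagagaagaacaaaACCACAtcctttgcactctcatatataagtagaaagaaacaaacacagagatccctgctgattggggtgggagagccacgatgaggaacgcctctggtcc
Gzmb: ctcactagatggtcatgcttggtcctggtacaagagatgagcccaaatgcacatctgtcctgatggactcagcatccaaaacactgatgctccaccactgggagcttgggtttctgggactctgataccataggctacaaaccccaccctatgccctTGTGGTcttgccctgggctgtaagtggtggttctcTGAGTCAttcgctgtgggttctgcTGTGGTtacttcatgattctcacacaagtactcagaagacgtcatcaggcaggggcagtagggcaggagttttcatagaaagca

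The Cd3e window held the ETS letters at -224 and, on the other strand, at -17 from the start, and the Cd3g window held the GATA letters at -104. The Gzma window held the RUNX letters at -50 on the other strand. The Gzmb window held the RUNX letters at -93 and -34 with the AP-1 letters between them at -58 on the other strand. None of these matches overlapped another. Of 32851 RefSeq promoters of the same length, 35.4% held the ETS letters, 16.8% the RUNX letters, 11.2% the GATA letters and 5.20% the AP-1 letters. The letters of TATA boxes (TATAAA), in 13.6% of promoters, and of TCF/LEF factors (CTTTGA), in 16.0%, were searched as well and were not in these 4 windows. A match describes the window and is not a shown binding site. For Gzmb the RefSeq start differs from that of the counted gene, which begins at 56262260 on the minus strand. The Gzmb window, from 56262285, thus lies wholly before the counted gene, and its positions hold for the RefSeq start only.

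The levels in colon are given first, on the authors' normalized counts, which divide each count by 1 factor per library and can be compared within a tissue. Cd3e (ENSMUSG00000032093, chr9:44998740-45009627, minus strand), the CD3 epsilon chain, measured 98.5, 14.8 and 45.4 normalized counts in mice 1, 2 and 4 (label UC) against 156.8, 32.8 and 96.3 in mice 7, 8 and 9 (label control). The labelled groups overlapped, and the lowest values in both were from mice 2 and 8. Cd3g (ENSMUSG00000002033, chr9:44969572-44980431, minus strand), the CD3 gamma chain encoded beside it, measured 304.0, 23.5 and 61.0 (mice 1, 2, 4) against 175.8, 30.3 and 141.3 (mice 7, 8, 9). Mouse 1 was the highest for Cd3g and the second highest for Cd3e. Counts behind these values were low, from 17 to 124 for Cd3e and from 24 to 321 for Cd3g. Lck (ENSMUSG00000000409, chr4:129548344-129573641, minus strand), the kinase that starts receptor signalling, measured 234.0, 112.3 and 115.5 normalized counts (mice 1, 2, 4) against 337.6, 90.8 and 284.3 (mice 7, 8, 9). As a fold of the lowest library it spanned a narrower range than either CD3 gene, with no library under 72 counts.

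Cd4 (ENSMUSG00000023274, chr6:124864692-124888221, minus strand), the helper co-receptor, measured 263.3, 160.2 and 167.4 colon normalized counts (mice 1, 2, 4) against 662.6, 127.3 and 786.4 (mice 7, 8, 9). Mice 7 and 9 stood above the rest, and mouse 8, with the same label, was the lowest of all 6. Cd8a (ENSMUSG00000053977, chr6:71373427-71379173, plus strand), the alpha chain of the cytotoxic co-receptor, measured 205.5, 13.1 and 23.1 (mice 1, 2, 4) against 263.0, 5.04 and 206.1 (mice 7, 8, 9). Within each label the values of Cd8a differed more than 10-fold on the count scale, from 15 to 217 counts and from 4 to 229 counts. Cd8b1 (ENSMUSG00000053044, chr6:71322788-71337494, plus strand), the beta chain that pairs with it on conventional cytotoxic T cells, measured 7.58, 14.8 and 19.8 (mice 1, 2, 4) against 48.1, 0 and 81.0 (mice 7, 8, 9). Mouse 1 thus had 8 counts of Cd8b1 beside 217 of Cd8a, while mouse 8 had 0 counts of Cd8b1, which allows up to 3.

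Foxp3 (ENSMUSG00000039521, chrX:7573644-7595245, plus strand) measured 17.04, 4.35 and 0 colon normalized counts (mice 1, 2, 4) against 22.8, 0 and 80.1 (mice 7, 8, 9). With 0 counts in mice 4 and 8, 5 in mouse 2 and 89 in mouse 9, the range rests on 1 library. Foxp3 also shares exon bases with its neighbours Ccdc22 (590), Gm36995 (373), Ppp1r3f (266) and the antisense-annotated Flicr (853), and the counting set no strand. Ccdc22 alone had between 852 and 1970 counts in colon libraries, so a few Foxp3 counts are uncertain. Cd3e shares 135 exon bases with Gm48719, which had 0 counts in all libraries, and Lck shares 25 with Mir8119.

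The granzymes had the widest ranges. Gzma (ENSMUSG00000023132, chr13:113093825-113100981, minus strand), granzyme A, measured 904.5, 0 and 24.7 colon normalized counts (mice 1, 2, 4) against 303.5, 23.9 and 333.8 (mice 7, 8, 9). Its counts ran from 0 in mouse 2 to 955 in mouse 1, both labelled UC. Gzmb (ENSMUSG00000015437, chr14:56258838-56262260, minus strand), granzyme B, measured 494.4, 6.10 and 13.2 (mice 1, 2, 4) against 385.7, 13.9 and 674.0 (mice 7, 8, 9). Mouse 1 was the highest for Gzma and mouse 9 for Gzmb, and mice 2, 4 and 8 were under 25 normalized counts for both.

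**Figure D1:**
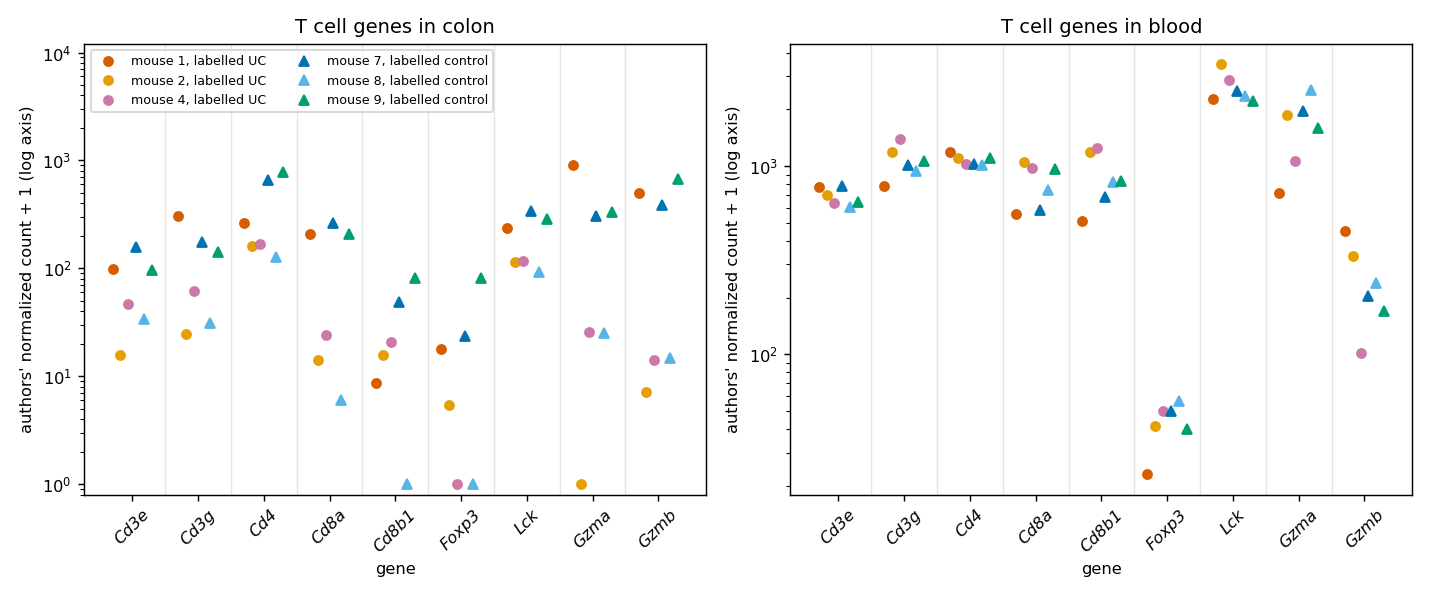
Authors' normalized counts plus 1 (log axis) of the 9 T cell genes in colon (left) and blood (right), 1 point a library, with circles for mice labelled UC and triangles for mice labelled control. In colon the points of each label are widely spread, as for Gzmb at 6.10 to 494.4 under the UC label and 13.9 to 674.0 under the control label, while in blood they lie closer together and their order differs from gene to gene.

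Of the 9 genes, 8 had their 3 highest colon values in mice 1, 7 and 9, against 18.2% of 22182 colon genes. Cd8b1 was the exception, with its 3 highest in mice 4, 7 and 9. In blood, 0 of the 9 genes had that order, against 11.8% of 16727 blood genes. This is a description of an order that was noticed in inflammatory genes of the same libraries and carries no test. The order cuts across both labels, and the spread within each labelled group was large.

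In blood the same genes varied less. Cd3e measured 774.0, 699.9 and 636.6 normalized counts (mice 1, 2, 4) against 780.3, 604.4 and 639.6 (mice 7, 8, 9). Cd4 had the narrowest range of the 9 as a fold of its lowest value, from 1004 in mouse 8 to 1185 in mouse 1, with a median of 1062. Lck measured 2268, 3456 and 2842 (mice 1, 2, 4) against 2505, 2357 and 2217 (mice 7, 8, 9). Cd3g ran from 777.1 in mouse 1 to 1380 in mouse 4. Mouse 1 was also the lowest for Cd8a (555.0), Cd8b1 (506.5), Foxp3 (22.1) and Gzma (721.3). Cd8b1 measured 506.5, 1186 and 1244 (mice 1, 2, 4) against 686.1, 817.0 and 834.9 (mice 7, 8, 9). The libraries labelled control lay close together and inside the range of those labelled UC. Gzma measured 721.3, 1856 and 1067 (mice 1, 2, 4) against 1945, 2542 and 1586 (mice 7, 8, 9), an overlap of mouse 2 with mouse 9 only. Gzmb measured 451.8, 331.1 and 100.6 (mice 1, 2, 4) against 202.9, 236.7 and 168.8 (mice 7, 8, 9), with both extremes under the UC label. Foxp3 stayed low in blood, from 21 to 64 counts.

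Set against each other per kilobase of exon, the 9 genes had a different order in each tissue. On TMM-scaled CPM (counts scaled to a common library total) per kilobase, the median level over 6 blood libraries was 30.6 for Gzma, 15.2 for Lck, 10.02 for Cd8b1, 5.83 for Cd3g, 4.78 for Cd4, 4.23 for Cd8a, 2.94 for Cd3e, 2.79 for Gzmb and 0.176 for Foxp3. In that order Gzmb and Foxp3 did not overlap, and the ranges of all other neighbours did. In colon the medians were 0.927 for Gzma, 0.793 for Gzmb, 0.329 for Lck, 0.294 for Cd4, 0.174 for Cd8a, 0.171 for Cd3g, 0.0957 for Cd3e, 0.0636 for Cd8b1 and 0.0129 for Foxp3, and all neighbours in the order overlapped. Cd8b1 thus stood near the top of the order in blood and near its foot in colon, and Gzmb the reverse.

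The comparison of UC with control in colon asked which genes respond to DSS in the tissue it injures. None of the 9 T cell genes was called between the libraries labelled UC and labelled control (edgeR quasi-likelihood, Benjamini-Hochberg adjusted p at most 0.05 over 22238 genes and an absolute log2 fold change over 1), where 0.0045% of all genes were called. None had an edgeR unadjusted p under 0.05. DESeq2, which gave no adjusted p for Gzma, and limma-voom called 0 of 9 as well. Log2 fold changes ran from -2.27 to 0.48 with a median of -0.98, against -0.0069 over all genes tested, and 7 of 9 were negative. Cd4 had the smallest unadjusted p of the 9, with a log2 fold change of -1.42 (SE 0.65, edgeR adjusted p = 0.999948). Its mean normalized count was 197.0 ± 57.5 (SD, n = 3) in libraries labelled UC and 525.5 ± 350.3 (SD, n = 3) in those labelled control. Gzma, at 0.48 (SE 1.94), and Cd3g, at 0.15 (SE 1.03), had positive values with an SE several times their size. Foxp3 had -2.27 (SE 1.71) and Gzmb -1.07 (SE 1.77). Single mice moved these values. Without mouse 1 Gzma was at -4.14, Cd3g at -1.46, Gzmb at -5.19 and Foxp3 at -3.92, and without mouse 9 Gzmb was at -0.26 and Foxp3 at -0.71, none of them called by edgeR. Without mouse 8 Cd4 was at -1.88 (SE 0.33) and Cd8b1 at -2.18 (SE 0.59), each with an edgeR adjusted p of 0.540. Over all genes, 1942 of 23122 then had an edgeR unadjusted p under 0.05, against 313 of 22238 with every mouse. For 0 of 9 genes were the labelled groups separate, against 5.66% of colon genes. With every mouse included, the SE of 6 of the 9 genes was over 1. A change of 2-fold in either direction between the labelled groups was therefore not detectable for these genes.

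In blood, the comparison asked whether the circulating cells differ. Again none of the 9 genes was called by edgeR over 16759 genes, where 0.0% of all genes were called, and 0 of 9 had an unadjusted p under 0.05. DESeq2 and limma-voom called 0 of 9. Log2 fold changes ran from -0.74 to 0.53 with a median of 0.15, against 0.036 over all genes. Gzma had the smallest unadjusted p, at -0.74 (SE 0.37, edgeR adjusted p = 0.9998), with means of 1215 ± 582 (SD, n = 3) in libraries labelled UC and 2024 ± 483 (SD, n = 3) in those labelled control. Cd3e had 0.056 (SE 0.21) and Cd4 0.073 (SE 0.19), the smallest SEs of the 9. The labelled groups were separate for 0 of 9 genes, against 6.5% of blood genes.

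**Figure D2:**
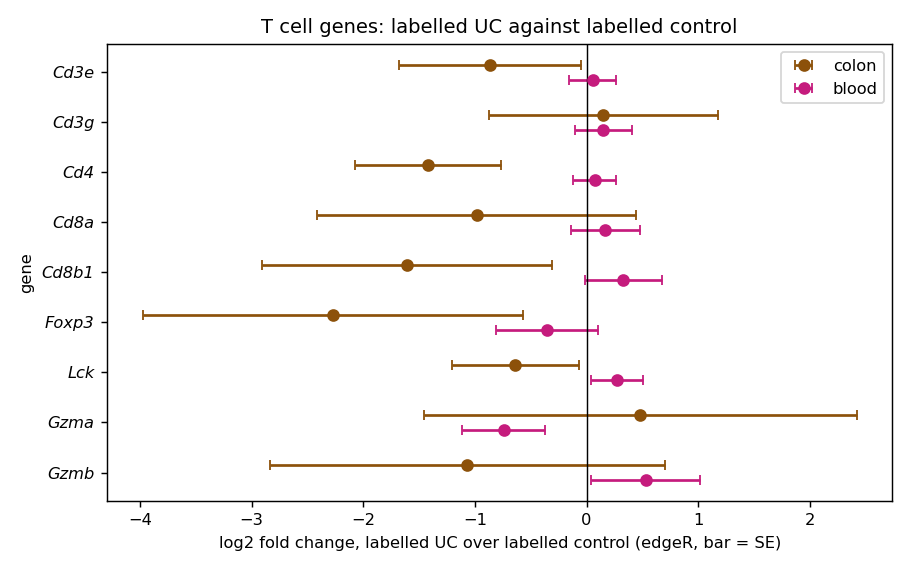
Log2 fold change of libraries labelled UC over libraries labelled control for each T cell gene in colon and in blood (edgeR, n = 3 a group, bars are SE). Colon bars are wide, up to 1.94 for Gzma, and none of the 18 values passed the test.

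The difference between the colon and the blood effect was fitted as an interaction contrast with all 12 libraries. None of the 9 genes was called by edgeR, where 0.0043% of 23258 genes were called, and 0 of 9 had an unadjusted p under 0.05. DESeq2 called 0 of 9. The largest ratio of value to SE was that of Cd4, whose colon effect was lower than its blood effect by -1.51 on the log2 scale (SE 0.70, edgeR adjusted p = 0.999994).

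The T cell genes differed between tissues. Of the 9, 8 were higher in blood than in colon (edgeR over all 12 libraries, 23258 genes), where 20.8% of all genes were called higher in blood and 37.7% higher in colon, and the median log2 difference of all genes was -0.46. Lck had the smallest adjusted p. Its CPM was between 40.2 and 60.9 in blood and between 0.508 and 1.93 in colon, a log2 difference of 5.47 (SE 0.37, edgeR adjusted p = 3.19e-07). Every blood library stood above every colon library. Cd3e had 10.8 to 14.6 CPM in blood and 0.0807 to 0.894 in colon, a log2 difference of 4.98 (SE 0.50, edgeR adjusted p = 5.80e-06). Cd3g had 4.81 (SE 0.64, edgeR adjusted p = 5.39e-05). Both CD3 chains were higher in the blood of 6 of 6 mice, by between 3.08 for Cd3g in mouse 1 and 7.35 for Cd3g in mouse 2 on the log2 scale.

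Among the co-receptors, Cd8b1 had the largest difference and Cd4 the smallest. Cd8b1 had 9.26 to 22.6 CPM in blood and 0 to 0.449 in colon, a log2 difference of 6.83 (SE 0.74, edgeR adjusted p = 1.12e-05). Cd8a had 10.2 to 18.4 CPM in blood and 0.0282 to 1.50 in colon, a difference of 4.54 (SE 0.87, edgeR adjusted p = 0.000699). Cd4 had 17.9 to 21.7 CPM in blood and 0.713 to 4.36 in colon, a difference of 3.44 (SE 0.38, edgeR adjusted p = 1.29e-05). All 3 co-receptor genes had every blood library above every colon library, which held for 7 of the 9 T cell genes and for 19.2% of all genes.

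Foxp3 and the granzymes were less firm. Foxp3 had 0.404 to 0.984 CPM in blood and 0 to 0.444 in colon, with colon mouse 9 above blood mouse 1, and a log2 difference of 3.12 (SE 0.95, edgeR adjusted p = 0.0121). It was no longer called without mouse 2 or without mouse 7 (edgeR adjusted p = 0.0514 each). Gzma had 13.2 to 45.3 CPM in blood and 0 to 5.01 in colon, a difference of 4.28 (SE 1.16, edgeR adjusted p = 0.00642). Without mouse 1, whose colon library was the highest, the difference of Gzma was 6.71 (SE 0.96, edgeR adjusted p = 0.000236). Gzmb was the gene not called, with 1.83 to 8.26 CPM in blood, 0.0332 to 3.74 in colon and a difference of 1.68 (SE 1.01, edgeR adjusted p = 0.158). Its blood library was the higher in 5 of 6 mice, and in mouse 9 the colon library was higher, with a log2 blood to colon value of -0.29. With the mouse as a replicate block, Gzmb was called at 3.06 (SE 1.16, edgeR adjusted p = 0.0434), and without mouse 1 at 3.50 (edgeR adjusted p = 0.00558), which makes 9 of 9. With scaling to library size only, the median of all genes moved to -2.57. Relative to that scaling Foxp3 (0.97) and Gzma (2.15) were not called, Gzmb turned to -0.51, and 6 of 9 genes were called.

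**Figure D3:**
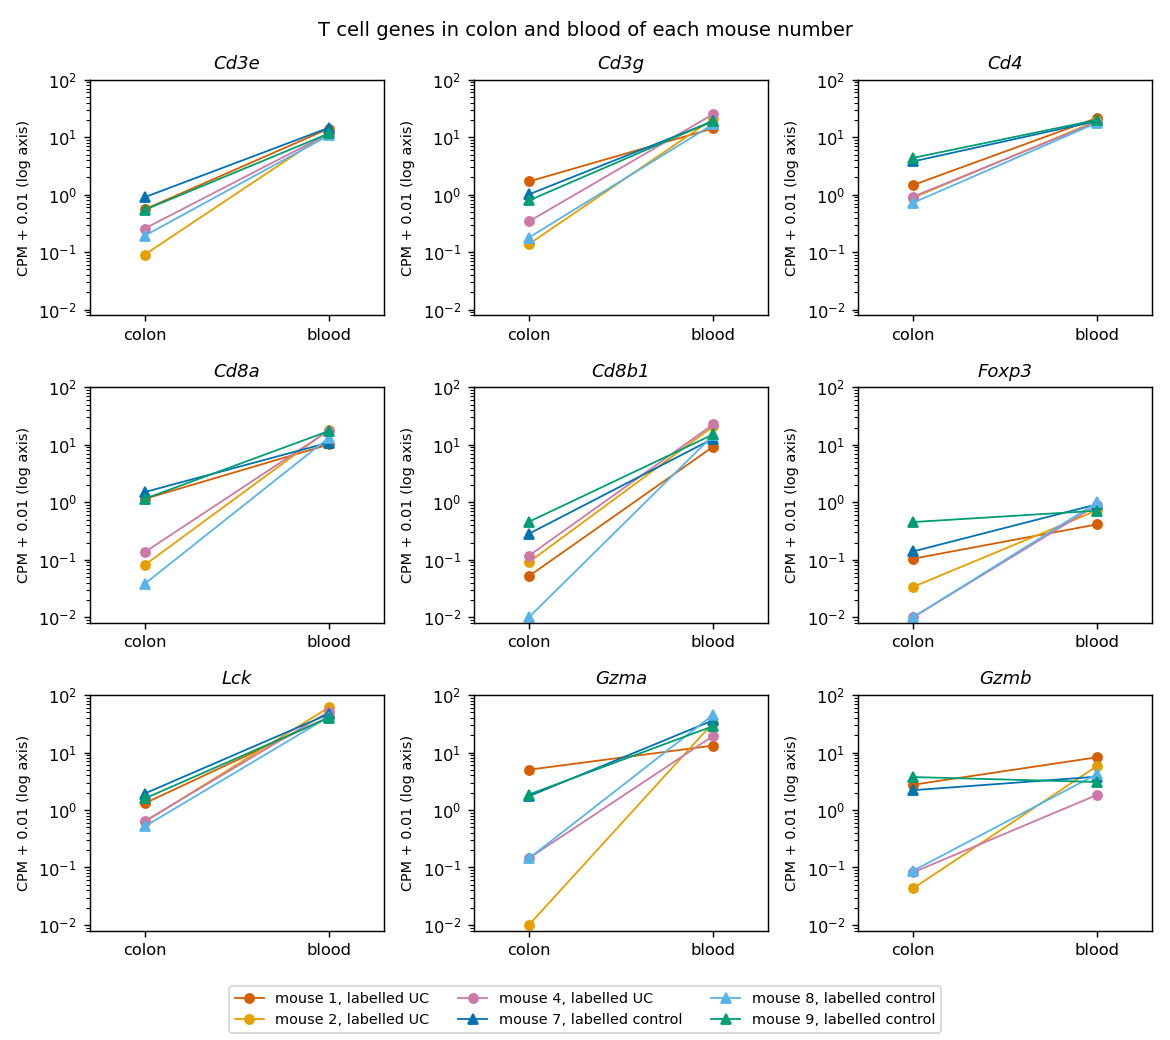
TMM-scaled CPM plus 0.01 (log axis) of each T cell gene in the colon and blood library of each mouse, joined by a line. Lines rise from colon to blood in all 6 mice for 8 genes, and for Gzmb that of mouse 9 falls while mice 1 and 7 rise by 1.59 and 0.79 on the log2 scale.

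Ratios of members within 1 library need no scaling between libraries, and 7 were compared between the tissues of the same mice. Per kilobase, Cd8b1 to Cd8a was between 2.13 and 3.13 in blood. In colon it was 0.0958, 2.77 and 2.11 in mice 1, 2 and 4, and 0.453, 0.272 and 0.967 in mice 7, 8 and 9. The log2 ratio was higher in blood in 6 of 6 mice, by 2.04 on average (SD 1.75, n = 6, exact two-sided sign-flip permutation test p = 0.03125, the smallest 6 pairs can give, adjusted over 7 ratios 0.219). In mouse 2 the ratios of the tissues were almost equal, at 2.78 and 2.77, and the value of mouse 8 rests on 0 and 4 counts.

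Cd8a to Cd4 was between 0.520 and 1.06 in blood and between 0.0492 and 0.866 in colon, higher in blood in 5 of 6 mice (mean log2 difference 1.98, SD 1.84, exact permutation p = 0.0938, adjusted 0.219). Mouse 1 was the exception, with 0.520 in blood and 0.866 in colon. Gzmb to Gzma was the ratio that was lower in blood, where it was 0.439 in mouse 1 and 0.0654 to 0.125 in the other mice, against 0.379 to 10.5 in colon (mean log2 difference -3.20, SD 2.18, exact permutation p = 0.0625, adjusted 0.219). The colon value of 10.5 was from mouse 2, with 7 counts of Gzmb and 0 of Gzma. Foxp3 to Cd4, Gzma to Cd3e, Cd3g to Cd3e and Lck to Cd3e had exact p from 0.219 to 0.875. None of the 7 passed after adjustment. A single ratio could not have passed with 6 pairs, since the smallest p adjusts to 0.219, so this outcome does not decide whether a ratio differed. Between the labelled groups, 3 against 3 cannot give a p under 0.1, and the 14 ratios tested within a tissue had unadjusted exact permutation p from 0.2 to 1.0.

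**Figure D4:**
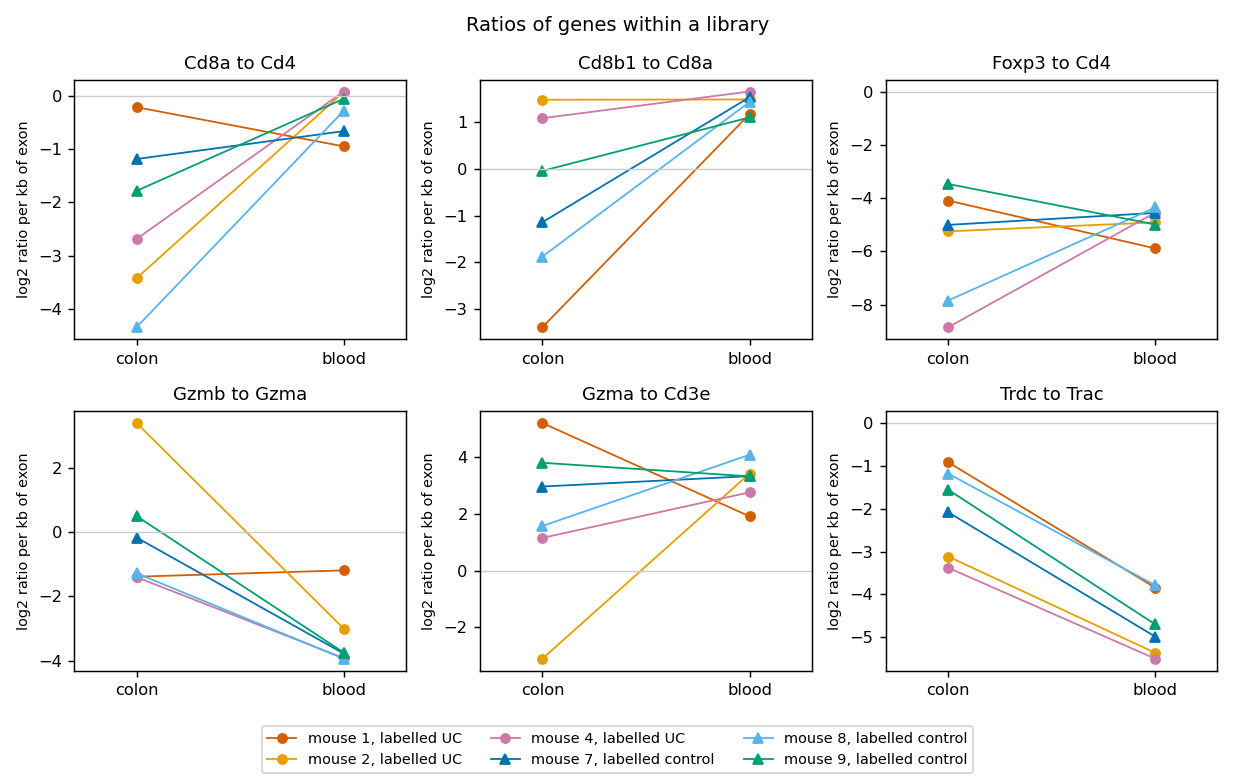
Log2 ratio per kilobase of exon of 6 gene pairs in the colon and blood library of each mouse, joined by a line. The Cd8b1 to Cd8a lines meet in a narrow range in blood (ratio 2.13 to 3.13) and spread in colon (0.0958 to 2.77), and Gzmb to Gzma falls from colon to blood in 5 of 6 mice.

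Other genes of T cells were read in lists of the same kind. The list of the T cell receptor complex and its signalling held 23 genes besides the members. Between labelled groups 0 of 21 tested in colon and 0 of 23 in blood were called by edgeR, with 1 and 4 at an unadjusted p under 0.05, against 1.41% and 1.44% of all genes tested. Of the 23, 19 were higher in blood than in colon and 0 lower. Cd247, the zeta chain of the receptor complex, had a log2 difference of 6.39 (SE 0.34, edgeR adjusted p = 8.09e-08), and Lat, the adaptor that Lck signalling reaches, had 6.10 (SE 0.35, edgeR adjusted p = 1.22e-07). The 4 that were not called were Trdc, Tcrg-C1, Tcrg-C2 and Tcrg-C4, the constant regions of the gamma-delta receptor, named after their values were seen. Their log2 differences were 0.92 (SE 0.75), 0.63 (SE 1.14), 0.43 (SE 0.83) and 0.47 (SE 1.06). Trac, the alpha chain constant region, had 4.07 (SE 0.63, edgeR adjusted p = 0.000153). Of the 21 genes tested in colon, 14 had their 3 highest values in mice 1, 7 and 9.

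Among 11 T cell lineage factors, 7 were higher in blood and 2 lower by edgeR. Lef1 and Tcf7, factors of naive and memory T cells, had log2 differences of 5.87 (SE 0.37) and 4.71 (SE 0.34). Zbtb7b, a factor of helper T cells that is also read outside T cells, was among those lower in blood, with -2.12 (SE 0.29, edgeR adjusted p = 5.94e-05). Of the regulatory T cell genes beside Foxp3, 6 of 9 tested were higher in blood and 0 lower. Ctla4, an inhibitory receptor, had 58.7, 2.61 and 15.7 normalized counts in colon mice 1, 2 and 4 and 197.3, 7.56 and 388.7 in mice 7, 8 and 9. Like Foxp3 it was highest in mouse 9 and under 20 in mice 2, 4 and 8. Naive and circulating T cell genes were higher in blood for 6 of 7 and lower for 1, Igfbp4, and gut homing and tissue-resident genes higher for 10 of 12 and lower for 2, Itga1 and Rgs1. Cd101 led the latter list, at 6.08 (SE 0.27, edgeR adjusted p = 2.96e-08), and Itga1, an integrin chain that smooth muscle also carries, had -3.70 (SE 0.31, edgeR adjusted p = 1.53e-06). Of the cytotoxic genes beside the granzymes named above, 9 of 10 were higher in blood, and 7 of 8 tested in colon had their 3 highest values in mice 1, 7 and 9. None of these lists had a gene called between labelled groups, where edgeR gave 2 genes (Icos, Igfbp4) in colon and 1 (Cxcr3) in blood at an unadjusted p under 0.05.

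Lists of other cell types were read beside these results, since granzymes are also made by NK cells and Cd4 and Cd8a by macrophages and dendritic cells. Of 8 NK cell genes, 8 were higher in blood, and of the 6 tested in colon 3 had their 3 highest values in mice 1, 7 and 9. Klrk1, a receptor shared by NK and cytotoxic T cells, measured 150.6, 30.5 and 37.1 colon normalized counts (mice 1, 2, 4) against 376.8, 51.7 and 150.3 (mice 7, 8, 9), and Klrd1 had 125.0, 21.8 and 73.4 and 203.6, 45.4 and 54.9. The summed NK list ran from 81.0 to 421.5 normalized counts in colon libraries labelled UC and from 165.1 to 844.7 in those labelled control. It was highest in mouse 7, whereas Gzma was highest in mouse 1. Of the NK receptor genes, Klrd1 had 25 to 161 counts in a colon library, Klrb1c 19 to 81 and Ncr1 0 to 47. Klra8 and Klra4, the lowest of the list in colon, had 0 to 3 counts in any library. In blood, Klrk1 ran from 414.8 in mouse 4 to 1286 in mouse 8 and Klrb1c from 402.6 in mouse 4 to 947.9 in mouse 8. Mouse 4 was also the lowest for Gzmb and mouse 8 the highest for Gzma, but at the other end mouse 1 was the highest for Gzmb and the lowest for Gzma. Csf1r and Adgre1 of macrophages had their 3 highest colon values in mice 1, 7 and 9, as did 5 of the 8 genes of the dendritic cell and macrophage list. Csf1r measured 3639, 2058 and 2154 (mice 1, 2, 4) against 5039, 1664 and 5593 (mice 7, 8, 9), and Adgre1 ran from 839.5 in mouse 8 to 2399 in mouse 9. Mice 7 and 9 were the highest and mouse 8 the lowest for both genes, an order that Cd4 shared with Lck, Cd8a and Cd8b1. The summed list ran from 4042 to 7296 normalized counts under the UC label and from 3427 to 11366 under the control label in colon, and Xcr1, which marks cross-presenting dendritic cells, had 24 to 106 counts. Dendritic cell and macrophage genes were higher in blood for 5 of 8.

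B cells gave a different order. None of 6 B cell genes had its 3 highest colon values in mice 1, 7 and 9. Ms4a1, the CD20 antigen, measured 30.3, 256.9 and 545.2 colon normalized counts (mice 1, 2, 4) against 584.2, 75.6 and 696.5 (mice 7, 8, 9), and Cd22 had 74.8, 254.3 and 345.6 and 848.5, 56.7 and 812.5. Mouse 1, the highest for Cd3g and Gzma, was the lowest for Ms4a1. The summed B cell list of mouse 1 was 6.74% of that in mouse 9, against 74.2% for the T cell receptor list and 57.4% for the neutrophil list. For the sum of the 9 T cell genes it was 94.2%, but granzymes made up 55.3% of that sum in mouse 1 and 37.6% in mouse 9. Without Gzma and Gzmb, a sum taken after these values were seen, mouse 1 had 67.4% of mouse 9. All 6 B cell genes were higher in blood than in colon. In blood, Ms4a1 was lowest in mouse 1 (3146) and highest in mouse 4 (10952), and Cd79b was lowest in mouse 1 (4454) and highest in mouse 4 (9517), the library order in which Cd3g and Cd8b1 also had their extremes.

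Among mast cell and basophil genes, which can include a source of granzyme B, 3 of 7 tested in colon had the order of mice 1, 7 and 9, with Hdc at 727.4, 34.0 and 14.8 (mice 1, 2, 4) against 561.5, 26.5 and 2415 (mice 7, 8, 9), and Mcpt1 at 37.9, 13.9 and 30.5 and at 179.6, 3.78 and 958.3. The summed list ran from 265.6 to 991.7 normalized counts under the UC label and from 182.8 to 4299 under the control label in colon. The mast cell proteases Tpsb2 and Mcpt4 had at most 33 counts in any colon library and 0 in all blood libraries. Other proteases of the list had more. Cpa3 had 6 to 126 counts in colon and 1 to 54 in blood, Cma1 67 to 258 and 22 to 66, and Mcpt2 6 to 774 and 0 to 19. Between tissues 3 of 9 mast cell genes were higher and 3 lower in blood. Neutrophil genes were higher in blood for 5 of 7 and lower for 1, Ly6g, which ran from 7350 in colon mouse 2 to 25479 in mouse 9. S100a9 ran from 16.5 in colon mouse 2 to 18061 in mouse 9 and from 21538 in blood mouse 8 to 257975 in mouse 1. Of the 120 genes of all lists together, edgeR called 102 between tissues and 0 between labelled groups. Of all genes, 20.8% were called higher in blood and 37.7% higher in colon. The 102 include 5 markers of colon epithelium and 4 of red cells, which were chosen to tell the tissues apart. The part of other cell types in the values of the 9 T cell genes was not tested.

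**Figure D5:**
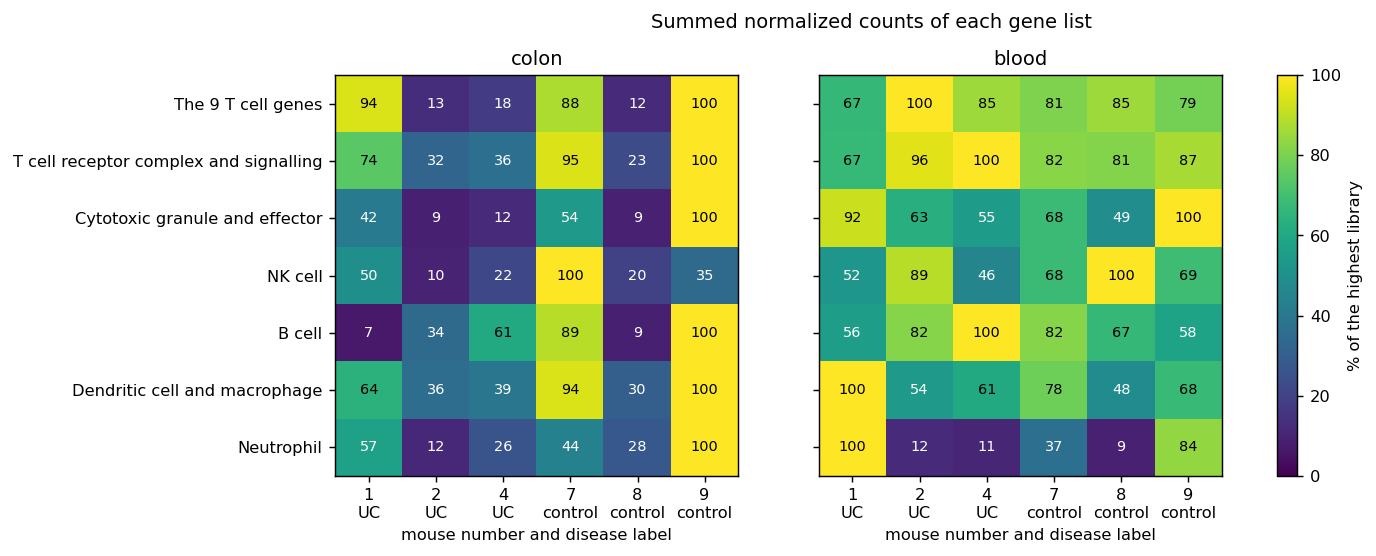
Summed normalized counts of the 9 T cell genes and of 6 gene lists in each library, as a percent of the highest library of that list, in colon and in blood, with the mouse number and label under each column. In colon mouse 1 has 94.2% for the T cell genes, of which granzymes are 55.3%, 74.2% for the T cell receptor list and 6.74% for B cells, and in blood the T cell genes stay between 66.6% and 100% while the neutrophil list runs from 8.99% to 100%.

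The genes most like Cd3e were found by the root mean square difference of log2 normalized counts over the 6 libraries of a tissue, after each gene's mean was subtracted. In colon, of 13625 protein-coding genes with a mean of at least 100 normalized counts, the 5 most like Cd3e were Ccl22 (0.227), Isg15 (0.238), Dgat2 (0.242), Ccl9 (0.259) and Oasl2 (0.269). Ccl22, a chemokine for activated and regulatory T cells, measured 126.0, 19.2 and 64.3 normalized counts (mice 1, 2, 4) against 222.6, 47.9 and 197.1 (mice 7, 8, 9). Isg15 and Oasl2 are interferon-induced genes, and Dgat2 is an enzyme of triglyceride synthesis. Among the other T cell genes with a mean of at least 100, Cd3g ranked 143, Lck 224 and Cd4 525, whereas Cd8a (10113), Gzmb (13134) and Gzma (13396) were far down the list. The measure counts the size of the differences between libraries as well as their order, so a low rank need not mean a different order. Cd8a, Gzmb and Gzma had wider ranges than Cd3e and, like it, their 3 highest colon values in mice 1, 7 and 9. In blood, of 9914 genes, the 5 most like Cd3e were Nit1 (0.0473), Tarbp1 (0.0519), Dpysl2 (0.0540), Ddx51 (0.0590) and Zfp810 (0.0604), and Cd4 ranked 172, Lck 2730 and Cd3g 4966. Where all 6 values of a gene lie close together, as in blood, many genes score alike.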

How the data were processed

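Total RNA was sequenced from colon and whole blood. Per the study's methods, reads were mapped to GRCm38 with STAR 2.5.2a and quantified with StringTie 1.3.4c on Ensembl 92, without strand. The deposited counts are whole numbers that the authors derived from transcript coverage. The deposited normalized values, a signal scale, are those counts divided by 1 factor per library (0.791 to 1.21 in colon, 0.664 to 1.31 in blood) and were made separately per tissue. Groups followed the labels for disease state and tissue.

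The counts were fitted with edgeR 4.0.16 in R 4.3.3 (TMM, filterByExpr, quasi-likelihood, Benjamini-Hochberg over all genes), each tissue alone for the disease labels and all 12 libraries for the interaction and the tissue comparison. Ratios used a pseudocount of 0.5 counts, exon lengths from GENCODE vM21 and exact permutation tests (scipy 1.17.1). The limit given for a count of 0 covers counting error only, whereas the SEs and SDs include the spread between libraries. The study took colon and blood from the same mice, so mouse numbers pair the libraries: deviations from group means of same-numbered libraries had r from 0.0047 to 0.227 over 15802 genes. Every library column was used. The steps were tested on simulated data.

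The members and lists were chosen with earlier results of these data known. Genes named by rule were the 9 members and, per comparison and direction, the 5 called list genes of lowest adjusted p. The rules added the 2 genes with the highest mean count of each list of another cell type, and the 5 genes most like Cd3e. Further list genes, such as Trac, Ctla4, Xcr1, Cxcr3 and Cxcr6, were named by no rule set beforehand. In the tissue comparison the first rule gave Epb42 (12.03), Cd101, Cd247 and Lat higher in blood, and Cdh1 (-8.86), Epcam (-9.27), Vil1 (-12.66) and Itga1 lower, as log2 differences, and the others under that rule are not reported here. Alternatives were RLE, no filter, DESeq2 1.42.0, limma-voom (limma 3.58.1), library size only, a single fit of all libraries, a replicate block, a pseudocount of 5 counts and each mouse left out.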

Additional observations from a re-analysis of the deposited data

Results flagged for a closer look

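In 32 sets of 6 libraries, the gap between the highest or lowest library and the next was set against Dixon's 95% critical value for 6 values. For values with a normal spread, chance passes it in about 1 set of 20. Genes were read on untransformed normalized counts, which are skewed, so that rate need not hold for them, and ratios on the log2 scale. The critical value was passed in 4 sets. In colon, Foxp3 was 80.1 normalized counts in mouse 9, with the next library at 22.8, and Gzma was 904.5 in mouse 1, with the next at 333.8. In blood, the log2 ratio of Gzmb to Gzma per kilobase was -1.19 in mouse 1, with the next at -3.00 in mouse 2. In colon, the log2 ratio of Lck to Cd3e was 3.37 in mouse 2, with the next at 2.04 in mouse 9, and the first of these rests on 17 counts of Cd3e.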

How the results depend on the processing

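The counts of T cell genes called were 0 for both label comparisons and the interaction under every alternative run, and 6 to 9 between tissues. With each mouse left out they were 0 and 7 to 9, and list genes called were 0 and 99 to 103. Other tools moved the calls over all genes, with DESeq2 at 6 in colon, 6 in blood and 21 for the interaction against 1, 0 and 1 in edgeR, and limma-voom at 0 in colon. The replicate block called 0 for the interaction and added Gzmb (3.06) between tissues, and changed no other call of a T cell gene. Without the replicate block, 3 of the 7 ratios between tissues passed against 0 with it, where a single ratio could not have passed. Directions that turned were those of colon Cd3g (-0.33) and Gzma (-2.83) under limma-voom, the interaction of Cd3g under RLE (0.019) and DESeq2 (0.026) and of Gzma under the replicate block (-1.37), Gzmb between tissues under library size only (-0.51), and, with a pseudocount of 5, Foxp3 to Cd4 between tissues (-0.31) and Gzmb to Gzma in colon (-0.37). None of these values had passed the test, and the cause was not tested. Leaving out a mouse turned the sign of label effects in colon for Cd3g (-1.46 to 0.64) and Gzma (-4.14 to 1.07), in blood for Cd3e (-0.011 to 0.18) and Cd3g (-0.038 to 0.36), and in the interaction for Cd3g (-1.83 to 0.53) and Gzma (-3.67 to 2.23). It also turned log2 ratios between labels, in blood for Cd3g to Cd3e (-0.20 to 0.36), Cd8a to Cd4 (-0.11 to 0.41) and Cd8b1 to Cd8a (-0.044 to 0.21), and in colon for Cd8a to Cd4 (-0.62 to 0.99), Cd8b1 to Cd8a (-0.13 to 2.29), Foxp3 to Cd4 (-1.83 to 0.77), Gzma to Cd3e (-3.76 to 0.40), Gzmb to Gzma (-1.08 to 1.32) and Lck to Cd3e (-0.079 to 0.74), and Cd3g to Cd3e between tissues (-0.087 to 0.39). Colon label effects that kept their sign also moved, for Gzmb (-5.19 to -0.26), Foxp3 (-3.92 to -0.71), Cd8a (-3.13 to -0.39), Cd8b1 (-2.18 to -0.80), Cd3e (-1.67 to -0.29), Lck (-1.07 to -0.29) and Cd4 (-1.88 to -1.04). Low colon counts, down to 0 for Cd8b1, Foxp3 and Gzma, limit what could be seen.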

Other observations

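The constant regions of the delta and the alpha receptor chain, Trdc and Trac, were compared within a library after their values were seen and without a test. Per kilobase, Trdc to Trac was 0.530, 0.115 and 0.0961 in colon mice 1, 2 and 4 and 0.236, 0.441 and 0.340 in colon mice 7, 8 and 9. In blood it was 0.0697, 0.0243 and 0.0221 in mice 1, 2 and 4 and 0.0315, 0.0723 and 0.0384 in mice 7, 8 and 9. The colon ratio was above the blood ratio in each of the 6 mice, and the colon value of mouse 8 rests on 15 counts of Trdc and 8 of Trac. Tcrg-C1, a gamma chain constant region, had normalized counts of 140.1 in blood mouse 1 and of 0 to 31.9 in the other blood libraries, and of 165.8 in colon mouse 1 and 127.7 in colon mouse 7. Cxcr3 and Cxcr6, chemokine receptors of effector T cells, were likewise highest in blood mouse 1, at 540.2 and 882.4 normalized counts, with the other blood libraries at 103.4 to 183.3 and 206.7 to 343.6.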
